A study of Rattus norvegicus with 325 samples.

Results

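The gastrocnemius, the large calf muscle that extends the ankle, was set against the tibialis anterior, the shin muscle that flexes it, in rats of 27 months. The samples were those whose titles name the muscle and this age, which gave 11 gastrocnemius and 12 tibialis anterior libraries, 23 of the 325 in the series. All came from male rats of the outbred Sprague Dawley strain, aged by the supplier (Envigo) with no treatment or transgene named in the labels, and total RNA of the muscle was sequenced. The same muscles at 6 months, 10 gastrocnemius and 12 tibialis anterior libraries, served as the young comparison. Which libraries share an animal is not given in the labels, so the p-values measure the spread between these libraries. Tissues of one age were taken on the same day, so that age and day of collection cannot be told apart.

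Skeletal muscle fibres come in slow and fast types. Slow fibres carry the β myosin heavy chain Myh7 and slow troponins, fast fibres the myosins Myh2, Myh1 and Myh4, and the mix differs between muscles and between regions of a muscle. Muscles also keep a record of where they formed, in Hox and T-box transcription factors, and they carry different amounts of tendon, nerve and immune tissue. In old muscle some fibres lose their nerve, and such fibres switch on embryonic acetylcholine receptor subunits and myogenic regulators.

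Levels are CPM, counts scaled to a common library size after TMM normalization (trimmed mean of M values), and differences are log2 gastrocnemius minus tibialis anterior with their standard errors. To be called, a gene needed a difference over 1.5-fold and, in limma-voom, an adjusted p (Benjamini-Hochberg) under 0.05. Total counts were 20.5 to 62.8 M in the gastrocnemius (median 30.2 M) and 21.4 to 41.8 M in the tibialis anterior (median 30.1 M). Every gastrocnemius library carries a running number of one series in its description, and every tibialis anterior, soleus and diaphragm library one of another series. Muscle and number series cannot therefore be told apart in any difference between the gastrocnemius and another muscle. The 28S ribosomal RNA gene Rn28s moved with that split, with 7811120 counts over the gastrocnemius libraries and 0 in all 12 tibialis anterior libraries. Ribosomal RNA genes took 0.605% to 6.11% of the counts in the gastrocnemius and 0.381% to 0.711% in the tibialis anterior. The gastrocnemius replicates 0 to 3 have numbers apart from the other 7 and held 35.0 to 62.8 M counts. The leading axis of the 23 libraries, with 42.2% of the variance, separated the muscles without overlap, and the second, with 23.7%, spread the libraries within both. Tibialis anterior replicate 9 lay at the end of the second axis.

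At 27 months 1168 of 11513 genes were called (10.1%), 893 of them higher in the gastrocnemius (7.76%) and 275 higher in the tibialis anterior (2.39%). Counts of called list members below are to be read against these shares. The 12 leading named genes of the gastrocnemius included Hoxd9, the slow fibre genes Tnnc1, Myl2, Tnnt1, Myh7 and Tpm3 and the tendon genes Kera and Fmod. Those of the tibialis anterior were headed by Tbx1, Lpcat4 and Sim1. The libraries of the muscles did not overlap for 542 genes (4.71%), 393 called genes differed over 2-fold, and 64 over 4-fold. The median difference of all genes tested was 0.001. For bulk muscle, fewer cells of a type and less RNA per cell cannot be told apart.

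**Figure D1:**
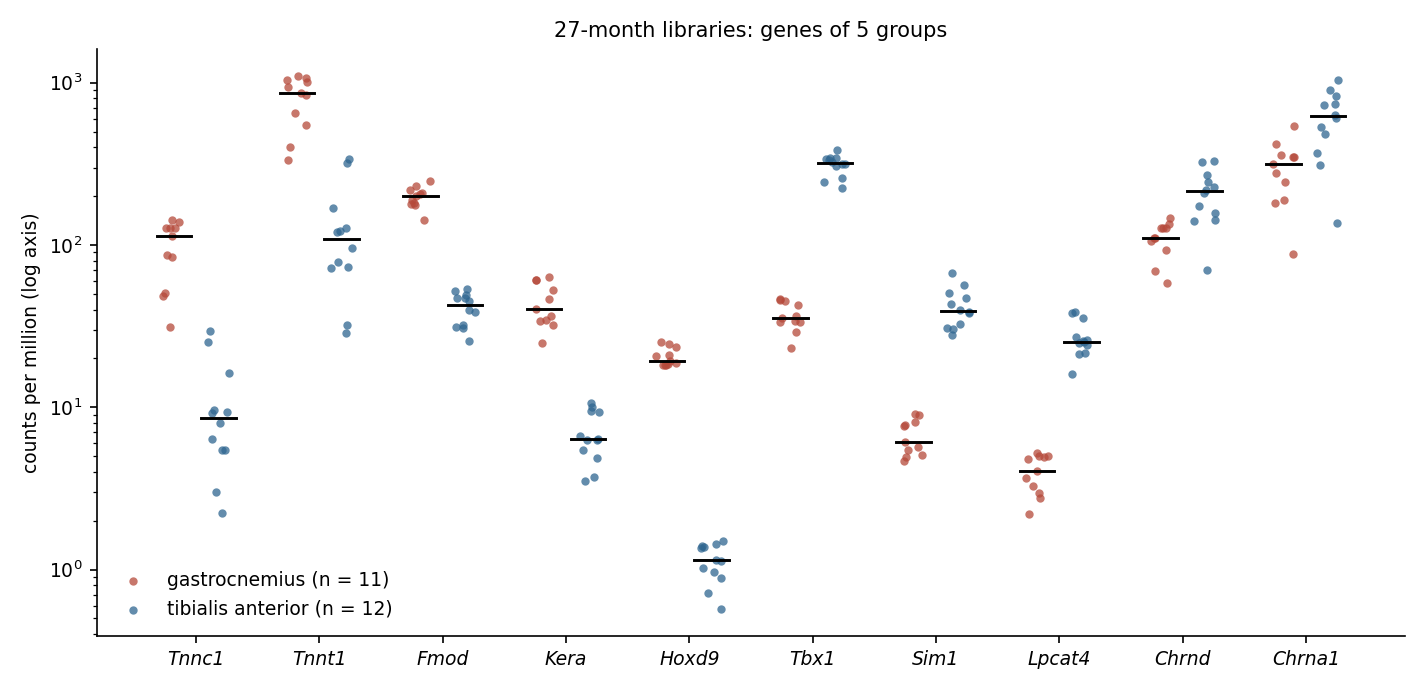
CPM on a log axis for 10 genes in each 27-month library, with the gastrocnemius in red, the tibialis anterior in blue and bars at the medians. The groups are apart for Tnnc1, Fmod, Kera, Hoxd9, Tbx1, Sim1 and Lpcat4 and overlap for Tnnt1, Chrnd and Chrna1.

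Slow fibre genes were higher in the gastrocnemius almost throughout. Of 17 measured, 14 were higher in the gastrocnemius and 0 higher in the tibialis anterior, with a median difference of 1.53. Tnnc1, the slow and cardiac troponin C, lay at 31.4 to 144 CPM (median 114) in the gastrocnemius and at 2.23 to 29.5 CPM (median 8.63) in the tibialis anterior. The groups did not overlap, and the difference was 3.38 ± 0.36, or 10.4-fold (adjusted p = 6.7e-08). Tnnt1, the slow troponin T, lay at 335 to 1101 CPM (median 867) and 28.8 to 337 CPM (median 108), a difference of 2.86 ± 0.38 (adjusted p = 1.6e-06), where the highest tibialis anterior library passed the lowest gastrocnemius library.

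Myh7, the slow myosin itself, was higher by 2.67 ± 0.47 (adjusted p = 6.4e-05). Its median was 8760 CPM (1739 to 11128) in the gastrocnemius against 869 CPM (191 to 4683) in the tibialis anterior, so single libraries of the tibialis anterior reached the levels of the lower gastrocnemius libraries. The regulatory light chain Myl2 differed by 3.04 ± 0.33, the slow troponin I gene Tnni1 by 2.09 ± 0.26, and the slow tropomyosin Tpm3 by 2.24 ± 0.36. The calcium pump of slow and cardiac muscle, Atp2a2, differed by 1.14 ± 0.21, and the muscle LIM protein Csrp3 by 1.04 ± 0.28. Myh6, the α cardiac myosin found in intrafusal fibres, differed by 2.24 ± 0.80 (adjusted p = 0.026) over a range of 1.29 to 90.3 CPM within the gastrocnemius. It neighbours and closely resembles Myh7, so reads may have been split between them. The 3 slow genes not called were myoglobin (Mb), at −0.45 ± 0.09, the calcium pump inhibitor Pln and the LIM protein Fhl1.

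Prox1 and Mettl21c, both tied to slow fibres, differed in the same direction. Prox1, a homeobox factor of slow fibres, differed by 1.46 ± 0.17 (adjusted p = 2.9e-07), and Mettl21c, a lysine methyltransferase, by 2.67 ± 0.33 (adjusted p = 5.7e-07). Mettl21c lay at 10.1 to 69.1 CPM in the gastrocnemius and 2.23 to 9.89 CPM in the tibialis anterior, without overlap.

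The fast side did not mirror the slow side. Of 18 fast fibre genes, 2 were called, both higher in the gastrocnemius, where 7.76% of all genes tested were. The median difference was 0.04. Myh1, the type IIx myosin, lay at a median of 44102 CPM in the gastrocnemius and 42171 CPM in the tibialis anterior, a difference of 0.07 ± 0.12 (adjusted p = 0.67). Myh4, the type IIb myosin, lay at medians of 26661 and 29041 CPM, a difference of −0.46 ± 0.25 (adjusted p = 0.14). Myh2, the type IIa myosin, lay at medians of 5927 and 6997 CPM with wide overlap. The fast troponin C gene Tnnc2 was 2.01-fold higher in the gastrocnemius, at 1521 to 2411 CPM against 675 to 1339 CPM (1.01 ± 0.11, adjusted p = 4.7e-08), without overlap. With 4 muscles scaled together, Myh4 had medians of 29032 CPM in the gastrocnemius and 31422 CPM in the tibialis anterior against 106 CPM in the slow soleus.

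The soleus and the diaphragm, 12 libraries each of the same age, place the slow genes on a wider scale. On that common scale the median of Tnnt1 was 116 CPM in the tibialis anterior, 930 CPM in the gastrocnemius, 1275 CPM in the diaphragm and 2288 CPM in the soleus. Tpm3 followed the same order, at 79.7, 514, 1911 and 2604 CPM, as did Myh7, at 931, 9261, 23002 and 33185 CPM. Tnnc1 and Myl2 did not, at 9.26, 120, 80.9 and 133 CPM and at 36.2, 408, 331 and 374 CPM. For both, the gastrocnemius median passed that of the diaphragm, and for Myl2 also that of the soleus. Mettl21c departed from the order too, at 5.19, 28.6, 1.29 and 167 CPM in these muscles, with the diaphragm lowest. For 12 of the 14 called slow genes the soleus median lay nearer to the gastrocnemius than to the tibialis anterior, and for 11 the diaphragm median did. Over all 893 genes higher in the gastrocnemius the soleus lay nearer to the gastrocnemius for 368 and the diaphragm for 312.

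**Figure D2:**
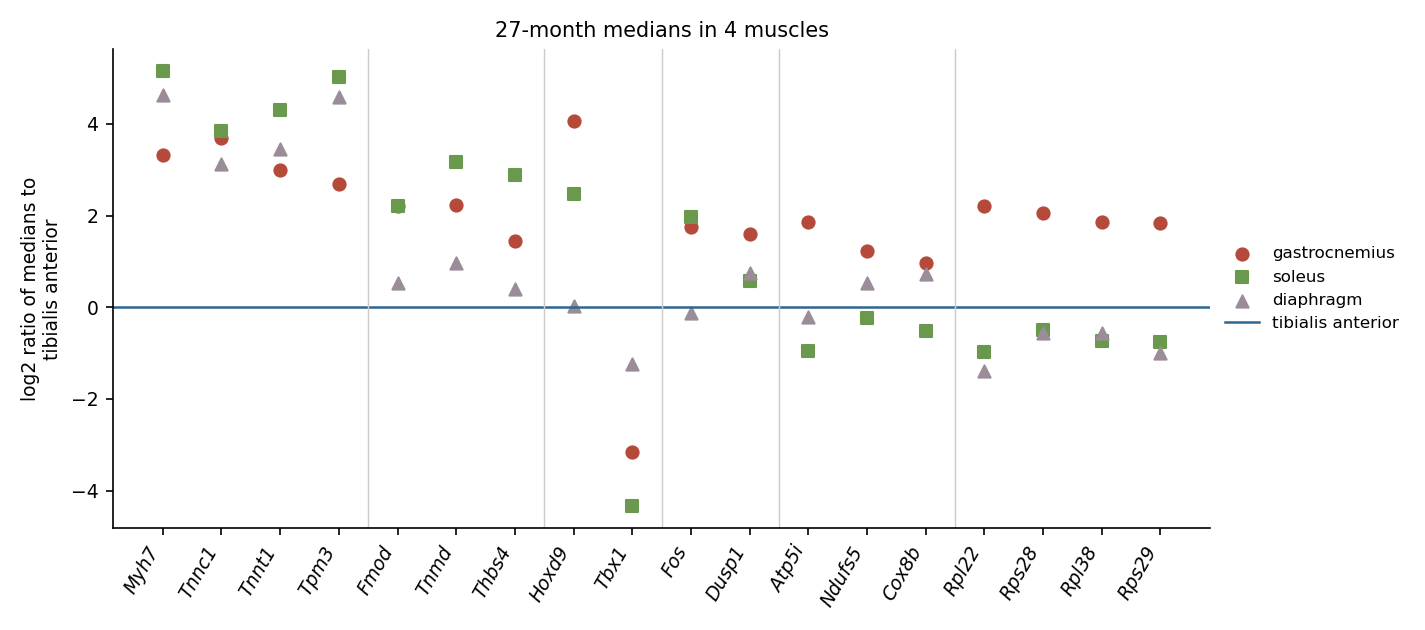
Log2 ratio of the 27-month median CPM of the gastrocnemius (red circles), soleus (green squares) and diaphragm (grey triangles) to that of the tibialis anterior (blue line at 0) for 18 genes. Slow fibre genes stand above the line in all 3 muscles, tendon genes above it most in the gastrocnemius and soleus, and ribosomal protein genes above it in the gastrocnemius alone.

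Tendon markers were also higher in the gastrocnemius. Of 10 measured, 9 were higher in the gastrocnemius, with a median difference of 1.47, and for 6 of them the groups were apart. Fibromodulin (Fmod), a collagen-binding proteoglycan of tendon, lay at 142 to 249 CPM (median 199) in the gastrocnemius and 25.5 to 53.8 CPM (median 42.5) in the tibialis anterior, a difference of 2.28 ± 0.12, or 4.87-fold (adjusted p = 5.0e-13). Keratocan (Kera), a proteoglycan of the same family, lay at 24.9 to 63.6 CPM against 3.53 to 10.6 CPM (2.70 ± 0.20, adjusted p = 1.3e-10). Tenomodulin (Tnmd), a membrane protein of tendon cells, lay at 4.68 to 10.3 CPM against 0.86 to 2.79 CPM (2.14 ± 0.16). None of these 3 genes overlapped between the muscles.

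Chondroadherin (Chad), thrombospondin 4 (Thbs4) and the cartilage matrix genes Cilp2 and Comp differed by 2.19 ± 0.17, 1.48 ± 0.17, 1.45 ± 0.19 and 1.4 ± 0.21. Cilp, the paralogue of Cilp2, was called at 0.70 ± 0.24 (adjusted p = 0.023), and without tibialis anterior replicate 9 its difference of 0.58 fell below the fold threshold. Scleraxis (Scx), the transcription factor of tendon progenitors, was not called, at 0.27 ± 0.19 (adjusted p = 0.25). The summed level of the 10 markers ran from 952 to 1830 CPM in the gastrocnemius and from 281 to 797 CPM in the tibialis anterior. How far tendon tissue in the sample sets these values was not tested.

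Among other matrix genes, 6 of 21 proteoglycans and matrix enzymes were higher in the gastrocnemius, with Dcn (decorin, 0.85 ± 0.07) and Postn (periostin, 1.37 ± 0.24) as examples. The Wnt co-activator Rspo3 lay at 3.31 to 11 CPM against 0.713 to 2.80 CPM, apart in all libraries (2.23 ± 0.22, adjusted p = 1.2e-08). In the soleus the medians of Fmod and Tnmd were 215 and 16.6 CPM on the common scale, against 212 and 8.68 CPM in the gastrocnemius and 66.6 and 3.62 CPM in the diaphragm.

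Of 16 Hox genes, which mark position along the body, 3 were higher in the gastrocnemius and 2 in the tibialis anterior, with a median difference of 0.31. Hoxd9 lay at 18.2 to 25.3 CPM (median 19.3) in the gastrocnemius and at 0.572 to 1.49 CPM (median 1.14) in the tibialis anterior, a difference of 4.24 ± 0.14, or 18.8-fold (adjusted p = 3.7e-17). Hoxd10 lay at 2.26 to 5.99 CPM against 0 to 0.129 CPM, with 1516 counts over the gastrocnemius libraries and 27 over the tibialis anterior libraries, 1 of which had none (5.67 ± 0.32, adjusted p = 1.5e-12). Hoxd4 differed by 1.48 ± 0.14, and for all 3 HoxD genes the groups were apart.

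Hoxb4 and Hoxa2 went the other way. Hoxb4 lay at 0.487 to 0.947 CPM in the gastrocnemius and 1.04 to 1.92 CPM in the tibialis anterior (−1.13 ± 0.13, adjusted p = 3.6e-07), without overlap. Hoxa2 lay under 1.1 CPM in every library and was called at −0.64 ± 0.22 (adjusted p = 0.021). That call ended without gastrocnemius replicate 2 (−0.52) or 4 (−0.57) and without tibialis anterior replicate 3 (−0.57) or 5 (−0.58), and also without gastrocnemius replicates 0 to 3 (−0.48).

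Tbx1, a T-box factor of head muscle and of fast glycolytic fibres, led the named genes of the tibialis anterior. It lay at 23.3 to 46.5 CPM (median 35.6) in the gastrocnemius and 224 to 387 CPM (median 322) in the tibialis anterior, a difference of −3.09 ± 0.11, or 8.51-fold (adjusted p = 1.2e-16). Tbx3, a limb T-box factor, was also higher there, at −0.79 ± 0.10 (adjusted p = 8.2e-07). Sim1, a bHLH-PAS factor expressed in limb muscle precursors, lay at 4.70 to 9.15 CPM against 27.7 to 67.1 CPM (−2.63 ± 0.16, adjusted p = 5.3e-12). The groups were apart for each of these 3 genes.

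On the gastrocnemius side stood Meis2, a homeobox cofactor of limb patterning, at 2.30 to 3.31 CPM against 0.286 to 0.992 CPM (2.27 ± 0.14, adjusted p = 6.4e-12). Six2, a homeobox factor of muscle and kidney development, differed by 1.66 ± 0.15 and Pitx1, the hindlimb identity factor, by 1.28 ± 0.28 at under 1 CPM. Epha3, an ephrin receptor that guides axons, was higher in the tibialis anterior (−1.36 ± 0.24, adjusted p = 7.4e-05). Of 26 other positional regulators 4 were called, against 10.1% of all genes tested, and 11 of the 16 Hox genes were not. On the common scale the diaphragm medians of Hoxd9 and Hoxd10 were 1.26 and 0.103 CPM and the soleus medians 6.79 and 0.960 CPM, while Sim1 was at 74.1 CPM in the soleus and 0.115 CPM in the diaphragm.

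Of 14 genes that rise in denervated fibres, 5 were higher in the tibialis anterior and 1 in the gastrocnemius, and the median difference was −0.48. Chrnd, the δ subunit of the muscle acetylcholine receptor, lay at 58.7 to 146 CPM (median 110) in the gastrocnemius and 70.5 to 330 CPM (median 214) in the tibialis anterior, a difference of −0.85 ± 0.20 (adjusted p = 1.6e-03). Chrna1, the α subunit of that receptor, lay at 87.9 to 538 CPM (median 317) against 137 to 1043 CPM (median 620) (−0.94 ± 0.29, adjusted p = 0.012). The libraries of the muscles overlapped for all 14 genes.

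Ankrd1, a stretch and injury response gene, was higher in the tibialis anterior by 1.59-fold (adjusted p = 0.021). Runx1, a transcription factor that preserves denervated fibres, was called at −0.66 ± 0.22 (adjusted p = 0.020), a call that ended without gastrocnemius replicate 1 (−0.55) or 5 (−0.58), without tibialis anterior replicate 7 (−0.58), and without gastrocnemius replicates 0 to 3 (−0.57). Sarcolipin (Sln), an inhibitor of the calcium pump, was higher in the gastrocnemius (1.34 ± 0.25, adjusted p = 1.3e-04). Musk, the receptor kinase of the junction, stood at −0.27 ± 0.23 (adjusted p = 0.36), and the adult ε subunit Chrne had medians of 21.1 and 22.7 CPM. With a Bonferroni adjustment none of the 6 limma-voom calls in this list remained, and without tibialis anterior replicate 9, whose levels of Chrnd, Chrna1 and Runx1 were the lowest of its group, 7 were called higher in that muscle.

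Myomaker, listed as Tmem8c, a membrane protein needed for myoblast fusion, lay at 1.05 to 7.03 CPM in the gastrocnemius and 2.58 to 20.6 CPM in the tibialis anterior (−1.73 ± 0.34, adjusted p = 2.3e-04). Of 14 genes that organise the junction, Colq, the collagen tail of acetylcholinesterase, was higher in the gastrocnemius (0.92 ± 0.21) and Lama5, a laminin chain of the synaptic basal lamina, higher in the tibialis anterior (−0.75 ± 0.17).

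Promoters of 3 of the 5 genes called higher in the tibialis anterior are shown here because acetylcholine receptor genes are known to be switched on through E-boxes, the CANNTG sites of myogenic factors such as myogenin. They come from RefSeq on build GRCr8, not the build of the counts, and cover the 250 bases before the gene start, written 5′ to 3′ along the gene with every CANNTG in capitals. Chrna1 lies on the minus strand at chr3:78877354-78877603, Chrnd on the plus strand at chr9:95310066-95310315 and Runx1 on the minus strand at chr11:45421326-45421575.
Chrna1: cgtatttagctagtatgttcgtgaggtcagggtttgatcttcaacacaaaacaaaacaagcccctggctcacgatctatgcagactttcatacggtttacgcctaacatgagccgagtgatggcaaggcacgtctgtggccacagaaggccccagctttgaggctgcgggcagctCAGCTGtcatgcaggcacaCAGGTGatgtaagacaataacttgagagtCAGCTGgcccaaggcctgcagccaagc
Chrnd: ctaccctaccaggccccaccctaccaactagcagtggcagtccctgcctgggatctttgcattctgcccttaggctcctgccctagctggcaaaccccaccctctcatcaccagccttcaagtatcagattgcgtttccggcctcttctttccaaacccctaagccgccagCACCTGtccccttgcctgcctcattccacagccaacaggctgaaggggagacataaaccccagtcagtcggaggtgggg
Runx1: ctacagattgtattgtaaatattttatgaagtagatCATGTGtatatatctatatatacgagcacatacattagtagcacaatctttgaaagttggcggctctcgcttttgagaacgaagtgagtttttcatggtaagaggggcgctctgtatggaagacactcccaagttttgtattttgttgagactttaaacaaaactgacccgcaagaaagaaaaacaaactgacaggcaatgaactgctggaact
Chrna1 held 3 such sites, of which 2 read CAGCTG, while Chrnd and Runx1 held 1 each and no CAGCTG. Both motifs read the same on either strand, and CAGCTG is 1 form of CANNTG. Of the 14 denervation genes, 10 had a promoter in the table. Of these, 4 held CAGCTG and 9 CANNTG, against 12.0% and 65.5% of all 33469 promoters of that length. Among the 4 with CAGCTG only Chrna1 was called, and Chrnb1, Chrng and Musk were not. Ankrd1 had no entry.

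Genes of other cells in the muscle differed as well. Of 12 macrophage markers, 6 were higher in the gastrocnemius and 0 in the tibialis anterior, with a median difference of 0.64 and libraries that overlapped for every marker. C1qa, a chain of the first complement component made by tissue macrophages, lay at 18.0 to 39.9 CPM (median 25.2) against 8.95 to 22.8 CPM (median 14.5), a difference of 0.93 ± 0.15 (adjusted p = 2.8e-05). Its partners C1qb and C1qc differed by 0.82 ± 0.15 and 0.77 ± 0.14, the scavenger receptor Cd163 by 0.79 ± 0.12, the growth factor receptor Csf1r by 0.73 ± 0.12 and the cytoskeletal marker Aif1 by 1.00 ± 0.20. Of 17 complement components 7 were higher in the gastrocnemius, among them the terminal component C6 (1.65 ± 0.29, adjusted p = 5.3e-05). The summed macrophage level ran from 318 to 553 CPM in the gastrocnemius and from 171 to 375 CPM in the tibialis anterior.

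Schwann cell markers went the other way in 2 of 11 genes. Sox10, the lineage factor of Schwann cells, lay at 0.631 to 2.40 CPM against 2 to 5.6 CPM (−1.22 ± 0.17, adjusted p = 2.9e-06), and the neurotrophin receptor Ngfr at medians of 1.30 and 2.44 CPM (−0.76 ± 0.23, adjusted p = 8.8e-03). The myelin gene Mbp was not called. Of 13 endothelial and 5 red cell markers 1 each was higher in the tibialis anterior (2.39% of all genes tested). Of 6 T cell markers 1 was higher in the gastrocnemius (7.76% of all genes tested).

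Immediate early genes, which rise within minutes of a stimulus, were higher in the gastrocnemius in 11 of 21 cases and higher in the tibialis anterior in 0, with a median difference of 0.75. Fos lay at 40.6 to 141 CPM (median 69.9) against 10.8 to 40.9 CPM (median 20.8), a difference of 1.79 ± 0.23 (adjusted p = 1.0e-06). The orphan nuclear receptor Nr4a2 differed by 2.07 ± 0.28, Fosb by 1.67 ± 0.31, the stress factor Atf3 by 1.48 ± 0.23, and Egr2 and Jund by 1.22 ± 0.20 and 1.2 ± 0.14. The phosphatase gene Dusp1 was apart in all libraries, at 97.8 to 208 CPM against 23.4 to 94.5 CPM (1.60 ± 0.22, adjusted p = 3.3e-06). The order in which muscles were taken from an animal is not given in the sources used here, and its part in these values was not tested.

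Secreted factors and their receptors differed in 11 of 30 genes, 9 of them higher in the gastrocnemius. Ostn, the muscle-secreted peptide musclin, lay at 1.32 to 14.9 CPM against 0.0494 to 1.84 CPM, a difference of 3.34 ± 0.53 (adjusted p = 2.0e-05) with a small overlap. Igf1, the growth factor of muscle, lay at 19.6 to 36.3 CPM against 12.0 to 21.0 CPM (0.84 ± 0.11, adjusted p = 9.0e-07). Socs2, the feedback inhibitor of growth hormone signalling, was apart in all libraries (1.54 ± 0.17, adjusted p = 1.5e-07). The activin subunit Inhba (1.34 ± 0.24), the activin receptor Acvr2b (0.91 ± 0.15), the neurotrophin Bdnf (1.16 ± 0.27) and the Igf-binding protein Igfbp6 (0.95 ± 0.13) were also higher.

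The 12 leading genes of the tibialis anterior held 3 enzymes of lipid metabolism, Scd1, Lpcat4 and Acot6, grouped here after their values were seen. Of the 31 fatty acid oxidation genes, 1 was higher in the tibialis anterior and 2 in the gastrocnemius, against 2.39% and 7.76% of all genes tested. Scd1, the stearoyl-CoA desaturase, lay at 49.6 to 222 CPM (median 121) in the gastrocnemius and 145 to 1098 CPM (median 508) in the tibialis anterior (−2.06 ± 0.31, adjusted p = 1.1e-05). Lpcat4, a lysophospholipid acyltransferase, lay at 2.19 to 5.2 CPM against 16.1 to 38.8 CPM, apart in all libraries (−2.79 ± 0.17, adjusted p = 5.8e-12). Slc51a, a steroid and bile acid transporter subunit, and the acyl-CoA thioesterase Acot6 differed by −1.68 ± 0.26 and −1.81 ± 0.41. The secreted glutathione peroxidase Gpx3 was lower in the gastrocnemius (−0.66 ± 0.11, adjusted p = 3.8e-05), a call that ended without gastrocnemius replicates 0 to 3 (−0.57).

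The other named genes of this direction were Raver2, an RNA-binding protein, at −2.40 ± 0.23, the adenylyl cyclase Adcy1 at −2.20 ± 0.51, Smad9, a mediator of BMP signalling, at −1.76 ± 0.20, the neuronal vesicle gene Nsg2 at −1.88 ± 0.62, and MGC105649 at −1.98 ± 0.31. Adcy1 ranged from 1.01 to 23.8 CPM within the tibialis anterior, and Nsg2 from 1.14 to 26.5 CPM. The call of Nsg2 ended without gastrocnemius replicates 0 to 3 (−1.66).

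Energy genes gave an uneven picture. Of 68 respiratory chain genes 23 were higher in the gastrocnemius and 0 in the tibialis anterior (median difference 0.32), while the 21 citric acid cycle genes had a median of −0.08. Of 31 fatty acid oxidation genes 3 were called, near the share of 10.1% over all genes tested. Atp5i, a small subunit of the ATP synthase, lay at 71.4 to 124 CPM against 17.6 to 35.8 CPM (1.85 ± 0.11, adjusted p = 5.3e-12), apart in all libraries. Ndufs5 of complex I and Cox8b of complex IV were also apart, at 1.2 ± 0.07 and 1.00 ± 0.09. Ndufa10l1, named for its likeness to a complex I subunit, was among the 12 leading genes (2.79 ± 0.24, adjusted p = 1.7e-09), and Ldhb, the heart form of lactate dehydrogenase, differed by 1.27 ± 0.19.

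Of 84 cytosolic ribosomal protein genes, 36 were higher in the gastrocnemius and 0 in the tibialis anterior, with a median of 0.47, and the groups were apart for 36 of the 84. Rps28 lay at 50.9 to 119 CPM (median 89.2) against 16.7 to 31.6 CPM (median 21.3), a difference of 1.97 ± 0.12 (adjusted p = 7.7e-12). Rpl22, Rps21, Rpl38 and Rps29 differed by 2.16 ± 0.15, 1.91 ± 0.15, 1.72 ± 0.11 and 1.62 ± 0.13. Sod1, the cytosolic superoxide dismutase, and thioredoxin (Txn1), both antioxidants, were apart as well, at 1.31 ± 0.06 and 1.90 ± 0.13, as was Eif4ebp1, a repressor of translation, at 1.42 ± 0.13. Ribosomal protein genes have many near-identical processed copies in mammalian genomes, so their counts depend on how such reads were assigned.

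The soleus and diaphragm, whose libraries share the number series of the tibialis anterior, stood with the tibialis anterior in these last 2 groups. For 35 of the 36 called ribosomal protein genes both medians lay nearer to the tibialis anterior than to the gastrocnemius, as did 19 of the 23 called respiratory chain genes. On the common scale the median of Rps28 was 95.9 CPM in the gastrocnemius, 22.9 CPM in the tibialis anterior, 16.3 CPM in the soleus and 15.5 CPM in the diaphragm. That of Atp5i was 95.6, 26.4, 13.6 and 22.7 CPM. Over all 893 genes higher in the gastrocnemius both medians lay nearer to the tibialis anterior for 458. Of the 11 called immediate early genes, the diaphragm median lay nearer to the tibialis anterior for 11 and the soleus median for 5. For all these genes, as for any other gene here, a difference of muscle and one between the number series cannot be told apart. Without the 36 ribosomal protein genes 857 genes remained higher in the gastrocnemius.

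**Figure D3:**
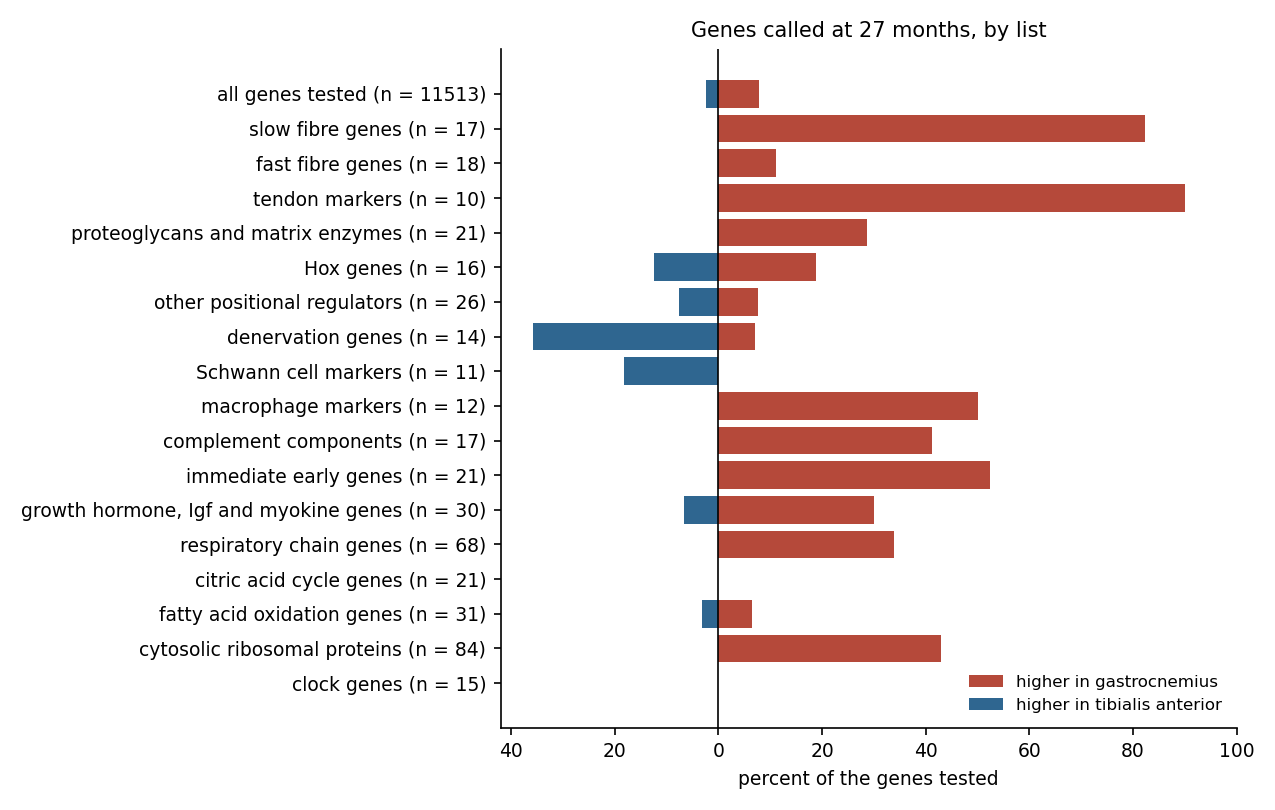
Percent of the genes of each list called higher in the gastrocnemius (red, to the right) or in the tibialis anterior (blue, to the left) at 27 months, with all 11513 genes tested in the top row. Tendon markers (9 of 10) and slow fibre genes (14 of 17) reach furthest right, and denervation genes (5 of 14) furthest left.

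The same contrast was fitted at 6 months. In a fit of all 158 gastrocnemius and tibialis anterior libraries at 7 ages, 2277 of 12142 genes were called at 6 months (18.8%), 1461 higher in the gastrocnemius (12%) and 816 higher in the tibialis anterior (6.72%). The number called in that fit was 2277 at 6 months, 2187 at 9, 2209 at 12, 1609 at 18, 1877 at 21, 1417 at 24 and 1351 at 27, with rises at 12 and 21 months, while the median standard error stayed between 0.0854 and 0.0925. The median absolute difference was 0.28 at 6 months and 0.20 at 27 months. The median spread between libraries (SD of log2 CPM) was taken over 7587 genes. It was 0.172 in the gastrocnemius and 0.090 in the tibialis anterior at 6 months, and 0.154 and 0.184 at 27 months.

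Of the 893 genes higher in the old gastrocnemius, 669 (74.9%) were called the same way at 6 months and 2 the opposite way. Of the 275 higher in the old tibialis anterior, 76 (27.6%) were called the same way and 12 the opposite way. Seen from the young side, 45.8% of the 1461 and 9.31% of the 816 genes were called the same way at 27 months. The change of the difference from 6 to 27 months was tested as an interaction, and 1016 genes passed (8.37%), with 650 shifted towards the gastrocnemius (5.35%) and 366 towards the tibialis anterior (3.01%). Each arm of that test compares ages within 1 muscle and thus within 1 number series. The tibialis anterior libraries of 27 months form a block of numbers of their own, while the gastrocnemius numbers of 6 and 27 months interleave. Age and number block therefore cannot be told apart in the tibialis anterior arm.

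**Figure D4:**
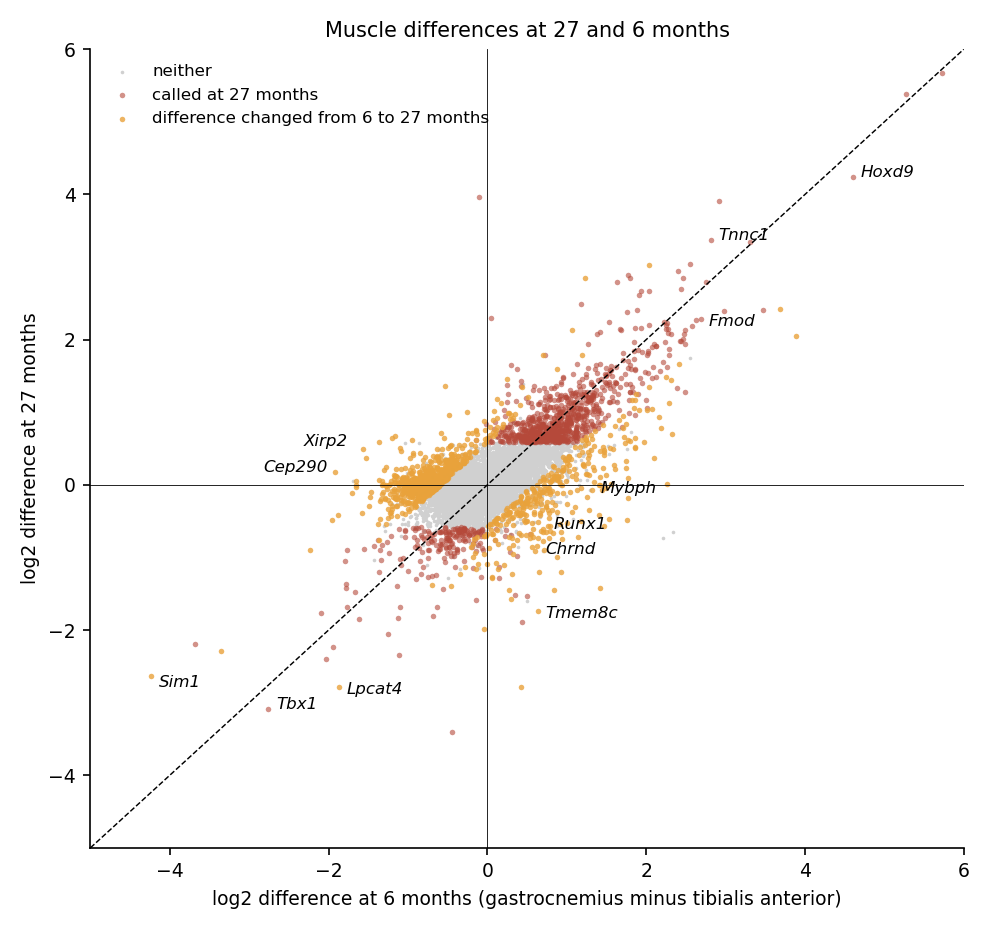
Log2 difference at 27 months (fit of the 23 old libraries) against that at 6 months (fit of all 158 libraries), each point 1 gene, without Rn28s. Red marks genes called at 27 months, orange genes whose difference changed between the ages and grey the rest, and the dashed line marks equality. Hoxd9, Tbx1, Tnnc1 and Fmod lie near the line, while Tmem8c, Chrnd and Runx1 lie right of it and below 0.

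None of the listed slow fibre or Hox genes passed the interaction test, which does not show that their differences were equal at both ages. Slow fibre genes had a median difference of 1.53 at 27 months and 1.49 at 6 months. The interaction of Tnnc1 was 0.57 ± 0.35 (adjusted p = 0.21) and that of Hoxd9 −0.37 ± 0.21 (adjusted p = 0.19). Of the other leading slow genes, Myh7, Tpm3, Myl2 and Tnnt1 had interactions of 0.73 ± 0.39, 0.71 ± 0.32, 0.49 ± 0.34 and 0.38 ± 0.35. Ankrd2 went the other way, at −0.47 ± 0.36. From 6 to 27 months Myh7 and Tpm3 changed by −1.07 and −1.10 in the tibialis anterior (adjusted p = 5.2e-05 and 1.2e-06). In the gastrocnemius they changed by −0.34 and −0.39 (adjusted p = 0.33 and 0.15). Tbx1 stood at −2.76 at 6 months and between −2.68 and −3.10 at the 7 ages, and Hoxd9 between 4.23 and 4.6. The interaction of Tbx1, −0.34 ± 0.13 in limma-voom (adjusted p = 0.0295), lay under the 1.5-fold threshold. Sim1 passed the interaction test. Its difference was −4.23 at 6 months and −2.64 at 27 months in the same fit, an interaction of 1.60 ± 0.30 (adjusted p = 1.9e-05), with tibialis anterior medians of 79.5 CPM at 6 months and 34.3 CPM at 27 months. In the gastrocnemius its medians were 4.76 and 5.26 CPM. The difference of Six2 narrowed by 0.76 ± 0.30 (adjusted p = 0.041).

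Denervation genes leaned the other way in young muscle. Their median difference was 0.30 at 6 months, when 5 of the 14 were called higher in the gastrocnemius and 0 higher in the tibialis anterior, and 5 of the 14 passed the interaction test. Chrnd had medians of 9.04 CPM in the gastrocnemius and 5.88 CPM in the tibialis anterior at 6 months (0.63, called), 97.0 and 95.0 CPM at 24 months, and 95.5 and 187 CPM at 27 months. Its interaction was −1.50 ± 0.35 (adjusted p = 4.0e-04). Runx1 ran from 13.6 and 7.86 CPM at 6 months to 239 and 173 CPM at 24 months and 183 and 295 CPM at 27 months, with an interaction of −1.41 ± 0.37 (adjusted p = 1.5e-03). In both genes the tibialis anterior median was higher at 27 than at 24 months, and the gastrocnemius median was not.

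Myog, the myogenic factor that activates receptor genes, had an interaction of −1.22 ± 0.30, Ncam1, the adhesion molecule of denervated fibres, −0.79 ± 0.29, and Hdac4, the deacetylase that relays denervation, −0.67 ± 0.22. None of these 3 was called at 27 months itself. Myomaker (Tmem8c) stood at 0.63 at 6 months and −1.74 at 27 months in the same fit (interaction −2.38 ± 0.72, adjusted p = 7.1e-03). The interactions of Lama5, of Mybph, a thick filament protein of stressed fibres, and of the perinatal myosin Myh8 were −0.60 ± 0.21, −1.40 ± 0.34 and −0.995 ± 0.20. Lama5 was called at 27 months itself, and Mybph and Myh8 were not. All 7 of these shifts were towards the tibialis anterior.

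**Figure D5:**
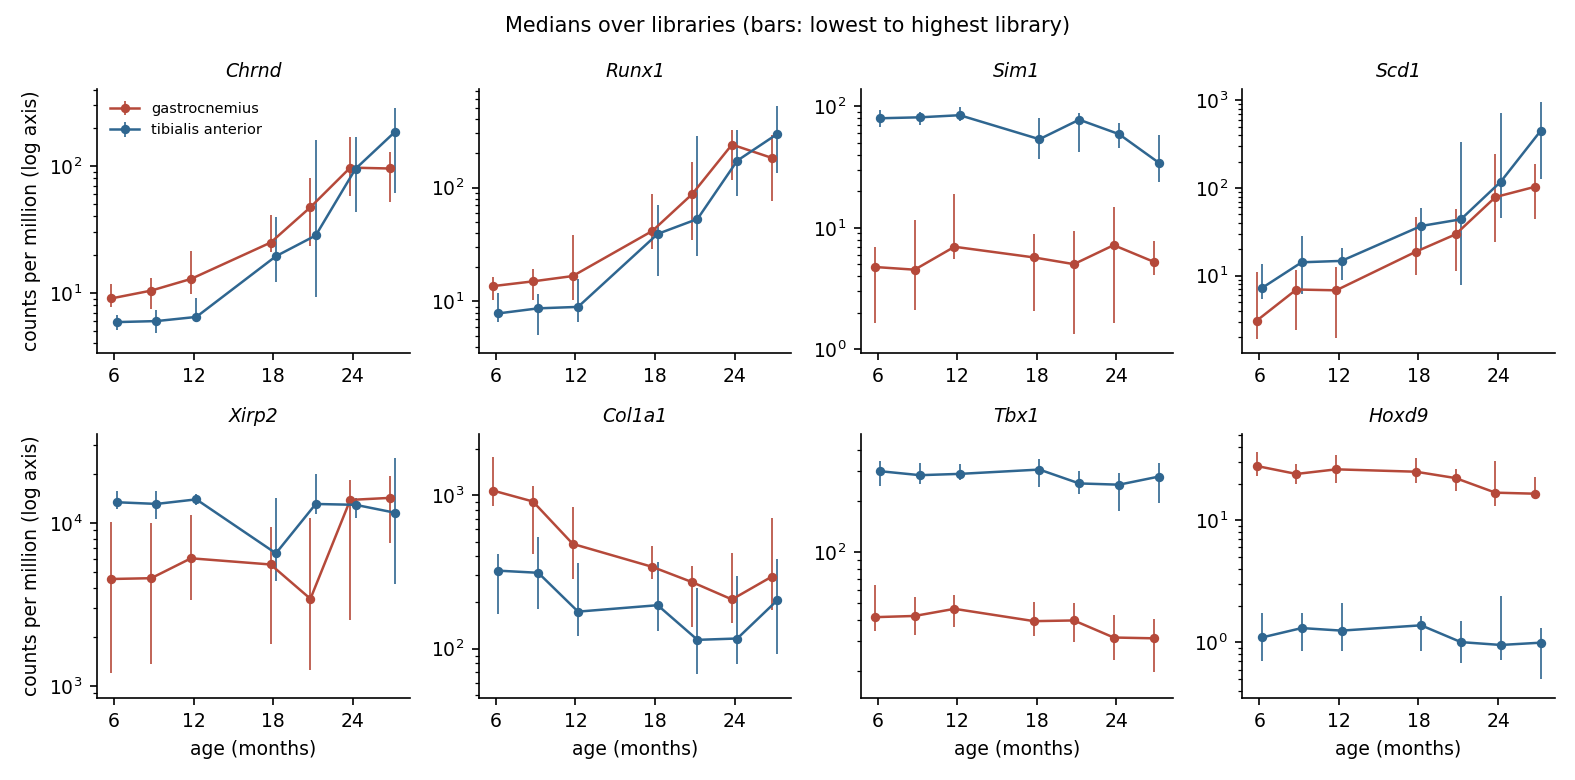
Median CPM (log axis) of 8 genes at 7 ages in the gastrocnemius (red) and tibialis anterior (blue), with bars from the lowest to the highest library. The lines of Chrnd and Runx1 cross after 24 months, those of Xirp2 meet by 24 months, and those of Tbx1 and Hoxd9 stay apart at all ages.

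Schwann cell genes shifted in the same direction. The median difference of the 11 markers was −0.40 at 27 months, that of the 12 tested in the fit of all ages was 0.10 at 6 months, and 6 of those 12 passed the interaction test. Sox10 changed by −0.90 ± 0.22, Ngfr by −0.86 ± 0.28, Mbp by −0.87 ± 0.20 and S100b by −0.89 ± 0.19. Mbp was highest by a wide gap in gastrocnemius replicate 7 at 6 months, and 5 markers still passed without replicates 0 and 7 of that group.

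The difference narrowed for both collagen I genes and for 2 of the 10 tendon markers, where 8.37% of all genes tested passed the interaction test. Col1a1 lay at medians of 1075 CPM in the gastrocnemius and 323 CPM in the tibialis anterior at 6 months, and 295 and 206 CPM at 27 months. Its interaction was −1.36 ± 0.30 (adjusted p = 1.9e-04), and that of Col1a2 was −1.2 ± 0.26. The 2 tendon markers, Thbs4 and Cilp2, narrowed by 0.78 ± 0.23 and 0.88 ± 0.31, and both were apart in all libraries at 27 months. The interactions of Fmod (−0.41 ± 0.25, adjusted p = 0.21) and Kera (0.25 ± 0.31, adjusted p = 0.58) did not pass. The median of the 10 tendon markers was 2.10 at 6 months and 1.47 at 27 months. The macrophage median was 0.99 and 0.64 at these ages, with an interaction of −0.64 ± 0.23 for C1qb, and the difference of Igfbp6 narrowed by 0.77 ± 0.18.

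The 6 named genes with the largest shift towards the gastrocnemius were Cep290, a centrosomal protein (2.10 ± 0.43), Xirp2, an actin-binding protein of the intercalated disc and Z-disc (2.04 ± 0.39), the nucleosome-binding Hmgn5 (1.95 ± 0.47), the galactosyltransferase B3galt2 (1.89 ± 0.70), the condensin subunit Smc4 (1.70 ± 0.29) and triadin, Trdn, of the calcium release unit (1.64 ± 0.33). Xirp2 lay at 1209 to 10146 CPM in the gastrocnemius and 12216 to 15652 CPM in the tibialis anterior at 6 months, apart in all libraries, and at 7509 to 19474 CPM and 4238 to 24966 CPM at 27 months, where they overlapped. Trdn had medians of 978 and 2947 CPM at 6 months and 1293 and 1395 CPM at 27 months. For Cep290, Xirp2, Smc4 and Trdn the young gastrocnemius was the lower muscle, and at 27 months the difference was not called. Hmgn5 is on more than 1 line of the count table, so its reads may be shared.

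B3galt2 was called at 27 months (1.36 ± 0.45, adjusted p = 0.016), and on the scale of all 158 libraries had medians of 5.59 and 1.57 CPM at 27 months and 0.295 and 0.416 CPM at 6 months. Its interaction missed the threshold in a fit of the 4 groups of these ages alone. Atp1b4, a muscle protein of the nuclear membrane, shifted by 1.55 ± 0.27 and myostatin (Mstn), the inhibitor of muscle growth, by 1.00 ± 0.28. Dusp1 and Inhba shifted by 0.73 ± 0.28 and 0.92 ± 0.34, both of which missed the threshold in edgeR.

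Towards the tibialis anterior, besides Tmem8c, the largest named shifts were those of Baiap2l1, an actin-membrane adaptor (−2.06 ± 0.35), the endocytic protein Epn3 (−2.01 ± 0.37), the cystatin Cst7 (−1.97 ± 0.49), MGC105649 (−1.95 ± 0.45) and the axonemal dynein Dnah1 (−1.87 ± 0.32). Dnah1 was higher in the young gastrocnemius, at medians of 1.31 and 0.603 CPM, and higher in the old tibialis anterior, at 3.36 and 6.01 CPM in the same scaling, and was called at 27 months (−0.72 ± 0.19, adjusted p = 3.9e-03), a call that ended without gastrocnemius replicates 0 to 3 (−0.59). Baiap2l1, Epn3 and Cst7 were called higher in the young gastrocnemius, with differences of 1.47, 1.53 and 1.78 at 6 months. At 27 months their differences of −0.57, −0.47 and −0.18 were not called. Lpcat4 widened by 0.92 ± 0.24 from medians of 2.12 and 7.77 CPM to 3.51 and 22.4 CPM. Gpx3 changed from medians of 182 and 139 CPM to 280 and 467 CPM, an interaction of −1.07 ± 0.17 (adjusted p = 8.1e-07). Scd1 stood at −1.25 at 6 months, and its interaction of −0.83 ± 0.59 did not pass (adjusted p = 0.29).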

How the data were processed

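The authors sequenced ribosomal RNA-depleted total RNA with a strand-specific kit, aligned reads to the rat build Rnor_6.0 in an ArrayStudio pipeline (its version is not given in the sources used here) and deposited raw counts per gene, 1 table per library. Samples were grouped by their titles. Here lines of one symbol were summed (17870 lines, 17315 symbols), genes were kept by filterByExpr within groups, scaled by TMM and tested with limma-voom (limma 3.58.1, edgeR 4.0.16, R 4.3.3), with Benjamini-Hochberg adjustment over all genes tested. The ages were fitted together as 14 groups with 1 shared spread per gene, with the interaction as a contrast. The scripts were tested on simulated data. DESeq2 1.42.0, edgeR and the other settings were tried as alternatives. Depth is the total count of each library, and its range limits the precision for low genes.

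Named genes were the 12 with the largest difference in each direction and the 6 with the largest interaction in each direction at a mean log2 CPM over 1, the 6 most variable genes in each muscle, and members of 43 gene lists. Members and lists were chosen with earlier results of these data known, so lists are described by counts and medians, without set tests. Some list members are counted but not reported here by name. Sequences came from RefSeq tables on GRCr8.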

Additional observations from a re-analysis of the deposited data

Results flagged for a closer look

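For 38 named genes the difference between the muscles changed from 6 to 27 months by the interaction test. Many of them were named for that pattern, so their number is no result. The log2 change was upward, towards the gastrocnemius, for 11. It was 2.10 for Cep290, 2.04 for Xirp2, 1.95 for Hmgn5, 1.89 for B3galt2, 1.70 for Smc4, 1.64 for Trdn, 1.60 for Sim1, 1.55 for Atp1b4, 1.00 for Mstn, 0.92 for Inhba and 0.73 for Dusp1.

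The change was downward, towards the tibialis anterior, for the other 27. Among denervation, junction and developmental fibre genes it was −2.38 for Tmem8c, −1.50 for Chrnd, −1.41 for Runx1, −1.40 for Mybph, −1.22 for Myog, −0.995 for Myh8, −0.79 for Ncam1, −0.67 for Hdac4 and −0.60 for Lama5. Among Schwann cell genes it was −0.90 for Sox10, −0.89 for S100b, −0.87 for Mbp and −0.86 for Ngfr. Among matrix, secreted and immune genes it was −1.36 for Col1a1, −1.20 for Col1a2, −0.88 for Cilp2, −0.78 for Thbs4, −0.77 for Igfbp6 and −0.64 for C1qb. The remaining changes were −2.06 for Baiap2l1, −2.01 for Epn3, −1.97 for Cst7, −1.95 for MGC105649, −1.87 for Dnah1, −1.07 for Gpx3, −0.92 for Lpcat4 and −0.76 for Six2.

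In the young gastrocnemius, a group of 10 libraries, a single library stood far from the rest for 4 of these 38 genes, where chance alone sets about 1 group in 20 apart. Replicate 0 had the lowest Tmem8c, at 0.0299 CPM, and the highest Dusp1, at 325 CPM. Replicate 7 had the lowest MGC105649, at 0.110 CPM, and the highest Mbp, at 22.5 CPM. Without both libraries, a choice made after seeing the data, 1110 genes passed the interaction test.

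With sample quality weights the changes of C1qb, Hdac4, Inhba, Lama5 and Six2 no longer passed, and in a fit of the 4 groups of both ages alone those of B3galt2, Dusp1 and Lama5 did not. In edgeR those of Dusp1 and Inhba did not.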

How the results depend on the processing

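At 27 months the 1168 calls became 585 with a Bonferroni adjustment and 393 at a 2-fold threshold (497 and 321 higher in the gastrocnemius, 88 and 72 in the tibialis anterior), and 164 genes were higher in the tibialis anterior when a mean log2 CPM over 1 was required. At 6 months the 2-fold threshold left 779 calls, 593 and 186 by muscle, the Bonferroni adjustment 939 higher in the gastrocnemius, and sample quality weights 488 higher in the tibialis anterior. Interactions numbered 289, 283 and 642 with the Bonferroni adjustment, the 2-fold threshold and quality weights, of which 218, 128 and 311 were upward, and the first 2 settings left 71 and 155 downward. Leaving out libraries gave 965 to 1214 calls at 27 months, 727 to 924 higher in the gastrocnemius and 238 to 328 in the tibialis anterior. The lowest total came without gastrocnemius replicates 0 to 3, and 871 of the 1168 calls were kept there. Scaling by total counts put 69.2% of calls on the gastrocnemius side, against 76.5%, and the Bonferroni adjustment 85.0%. Replicate numbers did not pair the libraries. Correlations over the 11 pairs ran from −0.64 to 0.56, 5 passed 0.1, and no gastrocnemius library correlated best with its own number. With the replicate block 1118 genes were called, 1069 of them among the 1168, and 3 denervation genes were higher in the tibialis anterior. The 6-month difference of MGC105649, near 0, turned to 0.044 in edgeR and to 0.070 without young gastrocnemius replicates 0 and 7. Among single genes, the block ended the calls of Chrna1, Runx1, Cilp and Nsg2, quality weights that of Myh6, total-count scaling that of Cilp and the fit of all 14 groups that of Ankrd1. The cause of these moves was not tested. Depth limits genes under 1 CPM.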

Other observations

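Of vessel and blood markers, 1 each of 13 endothelial, 11 smooth muscle and pericyte and 5 red cell genes was called higher in the tibialis anterior, where 2.39% of all genes were, and none of these lists was tested as a group. The endothelial markers had a median difference of −0.43, and their summed level ran from 395 to 598 CPM in the gastrocnemius and from 589 to 889 CPM in the tibialis anterior. The medians of the smooth muscle and pericyte markers and of the red cell markers were −0.37 and −0.37.

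The 6 most variable genes of each old muscle shared Myo5b, and a difference in spread was not tested. In the gastrocnemius the SD of log2 CPM was 2.10 for Myh6, 1.29 for Myo5b, a myosin motor of vesicle transport, 1.23 for Ankrd2, a stretch response gene of slow fibres, 1.16 for Myh9, 1.07 for Cd1d1 (1.11 in the tibialis anterior) and 1.01 for Rpl37a. In the tibialis anterior it was 2.95 for Gdf1, which had no count in 1 library, 1.46 for Myo5b, 1.38 for Anxa8, 1.32 for Myh7, 1.30 for Aqp4, the water channel of fast fibres, and 1.2 for Lgi2.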
